A study of Mus musculus with 27 samples.

Results

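The comparison described here asked whether loss of Smarcc1 had the same effect on gene expression in the dorsal optic stalk as in the region of the retinal axons beside it. It is a difference of differences. The mutant-minus-control difference in the axon region was subtracted from the mutant-minus-control difference in the dorsal stalk, with the labelled batch (A or B) as a term. It used 18 of the 27 libraries of the series: dorsal and axon pieces of 4 control and 5 mutant mouse embryos at embryonic day 14. The other 9 libraries, the ventral pieces of the same 9 embryos, were in the fit but not in the contrast. They shared in the estimates of the spread and of the batch effect, in the scaling and in the choice of genes tested. A negative interaction value means that the mutant level, relative to control, was lower in the dorsal stalk than in the axon region.

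The mouse lines were kept on a C57Bl6/J background. By the study's methods, mutants (Smarcc1-DCT-cKO) carried loxP-flanked Smarcc1 alleles, Dct-Cre and the Z/EG reporter, and control littermates lacked Dct-Cre. The promoter of Dct, a gene of melanin synthesis, drives this Cre in the pigment epithelium and in the optic stalk, and by the study's account the deletion had reached the whole stalk at this age. Pieces were cut by laser from sections of fresh frozen heads and amplified before sequencing (Geo-seq). Every number had 1 library per region in each genotype, and libraries with the same number were taken to come from the same embryo, which the labels do not state. Values given within embryos rest on that match. Batch A held control 1 and mutants 1 to 3, and batch B held controls 2 to 4 and mutants 4 and 5. In pieces of this kind, fewer cells of a type and less RNA per cell cannot be told apart.

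The optic stalk is the strand of neuroepithelium that joins the eye cup to the forebrain. Axons of retinal ganglion cells grow along it, and its cells turn into the glia of the optic nerve. Smarcc1 (Baf155) is a core subunit of the SWI/SNF complexes, chromatin remodellers that move nucleosomes and so open regulatory DNA. Stalk cells, glial progenitors and the mesenchyme around the eye secrete growth factors and matrix proteins to which growing axons respond.

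The 18 libraries held 10.9 to 24.0 M assigned reads (M, 1000000 reads), with a mean of 17.4 ± 3.53 M (SD, n = 18). A single read was worth 0.0416 to 0.0917 CPM (read counts scaled to a library total of 1000000), and 3 reads, the floor used below, 0.125 to 0.275 CPM. Such floors cover counting error only, since reads of amplified libraries without molecular identifiers are not independent molecules. Genes detected averaged 14132 ± 2606 (SD, n = 4) in dorsal controls, 13576 ± 1086 (SD, n = 5) in dorsal mutants, 12143 ± 1797 (SD, n = 4) in axon controls and 10146 ± 796 (SD, n = 5) in axon mutants. The axon mutants therefore had the lowest mean number of detected genes. The summed level of 12 markers of retinal ganglion cells and their axons was 1133 to 2883 CPM in the 9 axon libraries and 44.6 to 1064 CPM in the 9 dorsal libraries, so the labelled regions did not overlap. In axon controls the sum came mostly from the neurofilament gene Nefm and the synuclein gene Sncg, with means of 957 and 451 CPM against 34.3 and 5.33 CPM in dorsal controls. Tubb3, Elavl3, Isl1 and L1cam went the other way, with means of 13.5, 6.66, 0.791 and 0.382 CPM in axon controls and 100.1, 16.8, 31.6 and 7.26 CPM in dorsal controls, and Rbpms averaged 32.1 and 32.3 CPM.

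Smarcc1 itself (ENSMUSG00000032481.17) was read first. Its level was 116, 75.9, 289 and 97.2 CPM in dorsal controls 1 to 4 and 94.9, 107, 2.26, 44.3 and 24.5 CPM in dorsal mutants 1 to 5. In the axon region it was 61.9, 50.1, 242 and 143 CPM in controls and 10.1, 29.0, 5.64, 44.9 and 1.86 CPM in mutants. The genotypes overlapped in the dorsal stalk, where mutants 1 and 2 lay within the control range, and did not overlap in the axon region. The interaction for Smarcc1 was 1.34 ± 1.22 (log2, SE; edgeR adjusted p = 0.916). Counts were summed over the whole gene, including any exons that Cre leaves in place.

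Promoter sequence is shown for Ptn, the gene with the smallest p of the comparison, for Mmp14, whose libraries did not overlap in either region, and for Wif1, a secreted Wnt inhibitor with opposite mutant differences. The sequences are the bases 250 to 51 before the RefSeq transcription start (GRCm38.p6), on the strand of the gene. Capitals mark the one motif match found.
Ptn (chr6:36810230-36810429, minus strand): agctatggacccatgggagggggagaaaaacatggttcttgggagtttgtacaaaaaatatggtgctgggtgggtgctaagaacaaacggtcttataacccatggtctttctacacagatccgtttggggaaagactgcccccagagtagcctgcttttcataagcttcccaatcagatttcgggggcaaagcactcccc
Mmp14 (chr14:54431348-54431547, plus strand): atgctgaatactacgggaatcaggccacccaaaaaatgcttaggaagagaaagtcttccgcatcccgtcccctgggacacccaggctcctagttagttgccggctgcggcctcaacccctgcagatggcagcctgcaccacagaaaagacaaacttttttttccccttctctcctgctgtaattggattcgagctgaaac
Wif1 (chr10:121033754-121033953, plus strand): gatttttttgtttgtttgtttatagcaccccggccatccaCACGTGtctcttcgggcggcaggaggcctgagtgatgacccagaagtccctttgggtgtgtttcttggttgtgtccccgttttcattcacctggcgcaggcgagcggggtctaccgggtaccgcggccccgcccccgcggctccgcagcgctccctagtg

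The windows were searched on both strands for the AP-1 site TGACTCA, the E-box CACGTG bound by the pigment cell factor Mitf, the Otx core TAATCC and the Sox core ACAAAG. The only match was a CACGTG 210 bases before the start of Wif1. Among 32851 mouse promoters of the same length, 3.61% held TGACTCA, 4.34% CACGTG, 5.22% TAATCC and 13.6% ACAAAG. A match is a description of the letters and not a site, and the absence of one says only that these letters are not in this window.

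Of 16330 genes tested for the interaction, 4 were called (0.0245%) at an edgeR adjusted p under 0.05 and an absolute log2 difference over 0.58. Ptn and Sparc were negative, and Pdk2 and Rilpl2 were positive. Ptn and Sparc encode abundant secreted proteins, and their mutant levels lay below control in the dorsal stalk and above control, on average, in the axon region. Pdk2 and Rilpl2 were read in every dorsal library and in no axon mutant.

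Ptn (pleiotrophin, ENSMUSG00000029838.11, chromosome 6, bases 36714929 to 36810220, mm10) encodes a secreted heparin-binding growth factor that promotes neurite outgrowth. Its level in dorsal controls 1 to 4 was 1302, 1589, 2364 and 1910.0 CPM. In dorsal mutants 1 to 5 it was 157, 326, 274, 562 and 921 CPM, so that every mutant was below every control. Axon controls stood at 1159, 2159, 2309.9 and 2328 CPM, and axon mutants at 1408, 2529.7, 2495, 4177 and 4104 CPM. Axon mutants 2 to 5 exceeded every axon control, and axon mutant 1 lay within the control range. Group means were 1791 ± 455 (SD, n = 4) and 448 ± 303 (SD, n = 5) CPM in the dorsal stalk and 1989 ± 559 (SD, n = 4) and 2943 ± 1183 (SD, n = 5) CPM in the axon region, control before mutant.

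The interaction for Ptn was -2.68 ± 0.34 (log2, SE), with an edgeR adjusted p of 0.000247. Ptn fell 3.51-fold in the dorsal stalk (log2 -1.81 ± 0.24, edgeR adjusted p = 0.000526). The axon difference was 1.82-fold in the other direction (log2 0.87 ± 0.25) and did not pass after adjustment (edgeR adjusted p = 0.285). Within embryos, the dorsal-minus-axon difference in log2(CPM + 1) was 0.17, -0.44, 0.03 and -0.29 in controls 1 to 4 and -3.16, -2.95, -3.18, -2.89 and -2.15 in mutants 1 to 5. The genotypes did not overlap (exact permutation test, two-sided, p = 0.00794, the smallest that the splits of 4 and 5 embryos allow). Over the 40 splits that kept the batch composition the exact permutation p was 0.025, again the smallest possible. Ptn was chosen by the same contrast in the same libraries, so these permutation p values add no support to the call. With embryo as a block, the edgeR adjusted p was 5.07e-05. Without a batch term it was 0.0773, the only one of 21 alternatives in which Ptn was not called. In the ventral pieces of the same embryos Ptn averaged 1996 ± 245 (SD, n = 4) CPM in controls and 2441 ± 937 (SD, n = 5) CPM in mutants.

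Sparc (ENSMUSG00000018593.13, chromosome 11, bases 55394500 to 55423183) encodes a secreted collagen-binding glycoprotein of the extracellular matrix. Dorsal controls held 1578, 1997, 1957 and 2107 CPM and dorsal mutants 1261, 618, 1235, 643 and 1091 CPM. Axon controls held 1451, 1207, 1055 and 1553 CPM and axon mutants 3128, 2824, 2559.6, 1332 and 2725 CPM. All dorsal mutants were below all dorsal controls, and all axon mutants but mutant 4 were above all axon controls.

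The interaction for Sparc was -1.90 ± 0.28 (log2, SE; edgeR adjusted p = 0.0024), and with embryo as a block the edgeR adjusted p was 0.00085. Neither region passed alone. The dorsal difference was 2.03-fold downward (edgeR adjusted p = 0.0531) and the axon difference 1.83-fold upward (edgeR adjusted p = 0.189). The dorsal-minus-axon difference was 0.12, 0.73, 0.89 and 0.44 in control embryos and -1.31, -2.19, -1.05, -1.05 and -1.32 in mutant embryos. The genotypes did not overlap, and the exact permutation p values were 0.00794 over all splits and 0.025 within batches. Sparc was chosen in the same way as Ptn, so these too add no support to the call. Sparc was called in 20 of 21 alternatives, and batch B alone gave an edgeR adjusted p of 0.215.

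**Figure D1:**
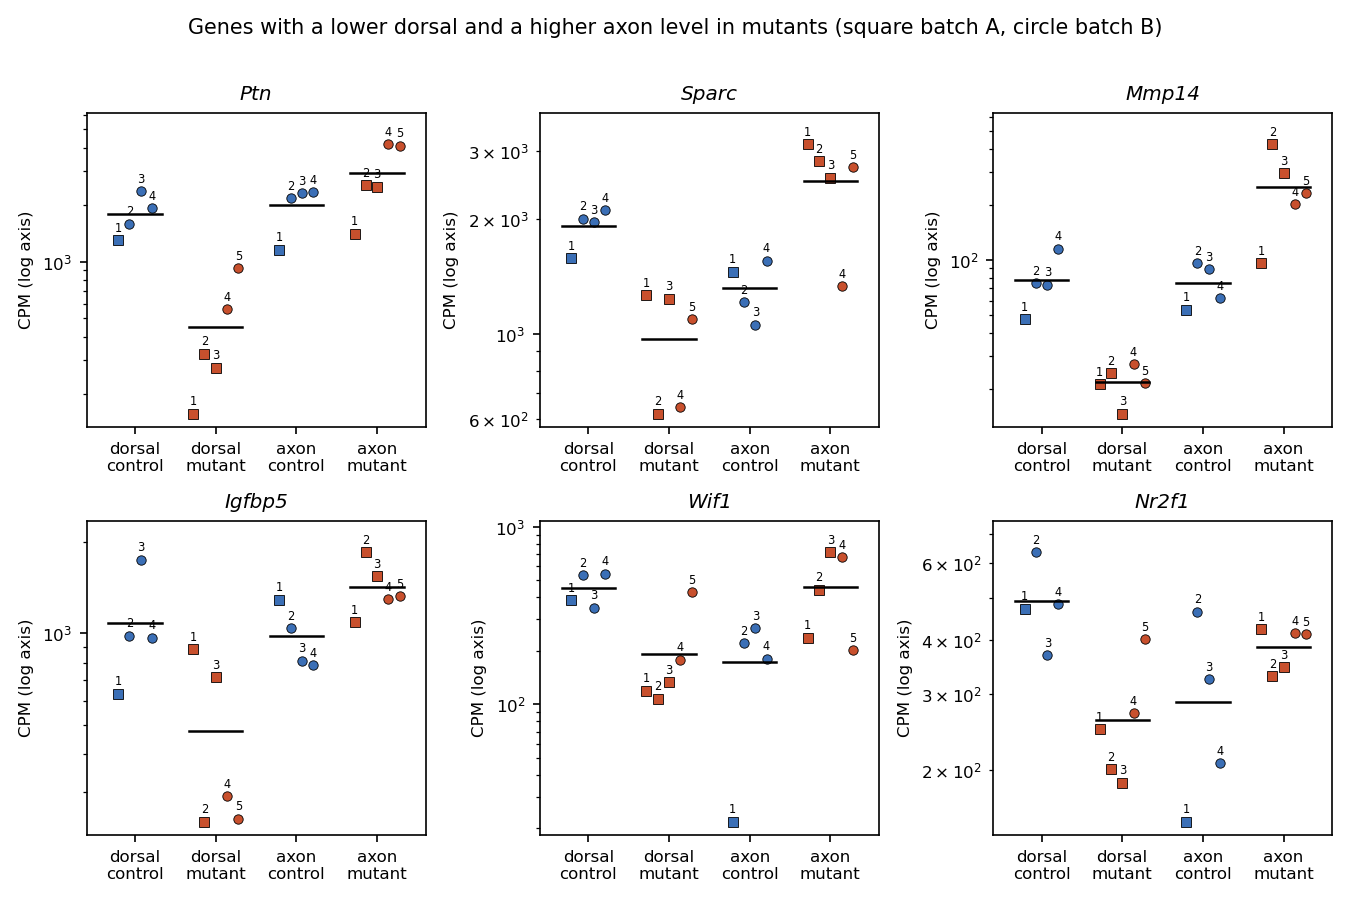
Levels of 6 genes in CPM (log axis) in each dorsal and axon library of control and mutant embryos; squares are batch A, circles batch B, digits the embryo number and bars the arithmetic mean of a group. Mutant means lie below control means in the dorsal stalk and above them in the axon region for all 6, and Mmp14 is the gene of these whose genotypes do not overlap in either region.

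Markers of the periocular mesenchyme had a lower summed level in dorsal mutants, but not in axon mutants beyond the control range. That mesenchyme surrounds the eye and stalk, and its cells make collagens and matrix proteins. The summed level of 12 markers was 1160 to 10389 CPM in dorsal controls and 56.1 to 372.5 CPM in dorsal mutants, so the genotypes did not overlap there. In the axon region the sum was 399.7 to 2526 CPM in controls and 629 to 2265 CPM in mutants, which overlapped. All 11 markers tested had a negative interaction with a median of -4.53, made of a dorsal median of -3.81 and an axon median of 0.02 (log2), beside medians of 0.19, 0.02 and -0.10 over all genes tested. Unadjusted interaction p values were under 0.05 for 3 of the 11, Col1a1, Col1a2 and Col3a1, against 11.7% of all genes tested, and none was called. Ptn and Sparc were below every dorsal control in all dorsal mutants, and above every axon control in all axon mutants but 1. The part of these cells in the Ptn and Sparc results was not tested.

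Pdk2 (ENSMUSG00000038967.13, chromosome 11, bases 95026258 to 95041354) encodes a kinase that switches off pyruvate dehydrogenase. It was at 123, 33.3, 0.767 and 2.69 CPM in dorsal controls and at 62.8, 27.7, 64.8, 9.93 and 18.8 CPM in dorsal mutants. Axon controls held 80.3, 29.5, 82.2 and 51.1 CPM, and all 5 axon mutants held 0 reads. The dorsal genotypes overlapped. The mean of the axon controls was at least 374-fold higher than the axon mutants, whose level was set to the mean of a floor of 3 counts per library. The edgeR adjusted p of the interaction was 0.00522. It was 0.0997 with embryo as a block, so the call did not hold there. Leaving out control 1 or control 4 gave 0.0626 and 0.0875.

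Rilpl2 (ENSMUSG00000029401.8, chromosome 5, bases 124463265 to 124478366) encodes a protein that binds Rab GTPases and acts in transport to cilia. Dorsal controls held 0.624, 47.1, 33.5 and 37.0 CPM and dorsal mutants 51.7, 28.3, 40.5, 33.3 and 28.0 CPM. Axon controls held 14.3, 19.5, 5.90 and 22.3 CPM and all 5 axon mutants 0. The mean of these controls was at least 95.4-fold higher by the same floor. The interaction had an edgeR adjusted p of 0.0309, and 0.183 with embryo as a block. Rilpl2 was called in 7 of 21 alternatives and in 1 of the 9 fits that left out an embryo.

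These were the extreme cases of a wider pattern. In all, 38 genes were at or under the floor in every axon mutant and above it in every axon control, and 1 gene showed the reverse. In the dorsal stalk the counts were 23 and 13. Only 5 of the 38 were above the floor in all dorsal libraries: Pdk2, Rilpl2, Gys1, Cep72 and Jmjd7, named after their values were seen. Gys1, a glycogen synthase, held 3.28 to 36.2 CPM in axon controls and 0 in the 5 axon mutants, and averaged 23.5 ± 11.5 (SD, n = 4) and 29.6 ± 25.8 (SD, n = 5) CPM in dorsal controls and mutants. The lower number of genes detected in axon mutants stands beside these counts, and its part in them was not tested.

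**Figure D2:**
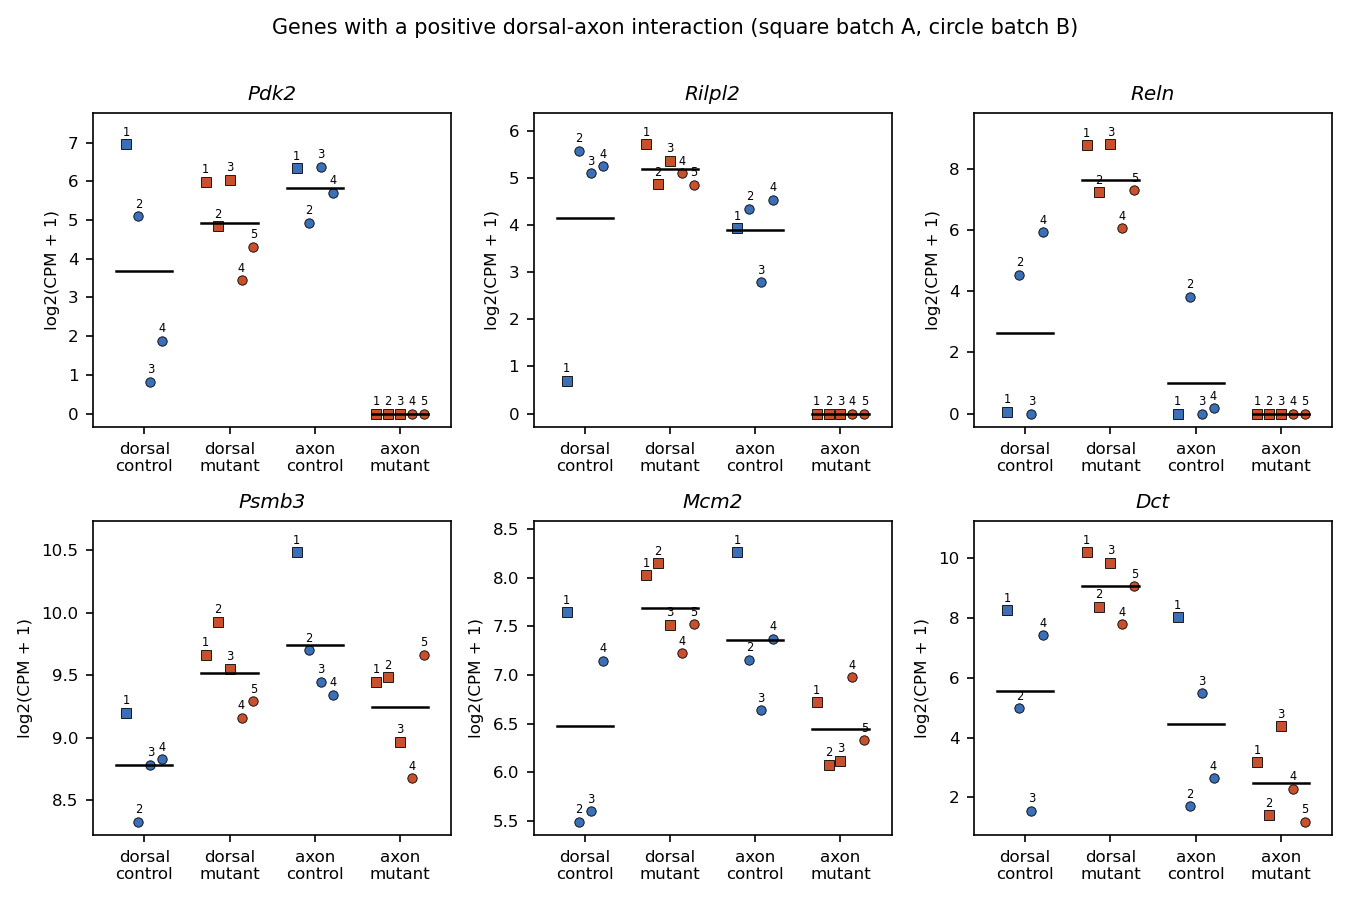
Levels as log2(CPM + 1) of Pdk2, Rilpl2, Reln, Psmb3, Mcm2 and Dct in each dorsal and axon library, with squares for batch A, circles for batch B, digits for the embryo number and bars for group means. Pdk2, Rilpl2 and Reln were at 0 in all 5 axon mutants.

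The axon region and the dorsal stalk were also tested apart. In the dorsal stalk 1223 genes (7.49%) had an unadjusted p under 0.05 and 2 were called, Ptn and Mfap2. In the axon region 1890 genes (11.6%) had an unadjusted p under 0.05, 543 higher and 1347 lower in mutants, and 5 were called. Pdk2, Rilpl2, Gys1 and the nucleotide sugar transporter Slc35b4 fell, and Calcrl, a receptor of adrenomedullin peptides, rose (edgeR adjusted p from 0.00109 to 0.0201). None of the 5 was called when the 18 dorsal and axon libraries were fitted without the ventral ones. Slc35b4 averaged 92.4 ± 45.2 (SD, n = 4) CPM in axon controls and 0.0889 ± 0.123 (SD, n = 5) CPM in axon mutants, and 76.4 ± 66.9 (SD, n = 4) and 53.9 ± 35.2 (SD, n = 5) CPM in dorsal controls and mutants. Calcrl was at 0 in the 4 axon controls and averaged 35.5 ± 35.1 (SD, n = 5) CPM in axon mutants. Mfap2, a microfibril-associated matrix protein, fell in the dorsal stalk from 1018 ± 128 (SD, n = 4) to 225.5 ± 52.5 (SD, n = 5) CPM (log2 -2.22 ± 0.32, edgeR adjusted p = 0.00119). In the axon region Mfap2 was 548 ± 362 (SD, n = 4) CPM in controls and 495 ± 164 (SD, n = 5) CPM in mutants, and its interaction of -2.02 ± 0.45 (log2, SE) had an edgeR adjusted p of 0.17.

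Opposite directions were counted at an unadjusted p under 0.05 in each region. Among all genes tested, 194 had an unadjusted p under 0.05 in both regions, of which 111 (0.68% of genes tested) had the same sign, 43 higher and 68 lower in both. The other 83 (0.508% of genes tested) had opposite signs. Of these, 54 were higher in dorsal mutants and lower in axon mutants, and 29 were the reverse. At least 1 of the 4 groups was at or under the floor for 69 of the 83, against 5141 (31.5%) of all genes tested. Of the 14 without such a group, 10 were lower in dorsal and higher in axon mutants and 4 the reverse. Among the 7179 genes with a mean of at least 20 CPM, 13 had opposite signs, 10 of them lower in dorsal and higher in axon mutants, and 12 had the same sign. These counts rest on unadjusted p values, and only Ptn and Sparc among the 83 were called in the interaction.

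**Figure D3:**
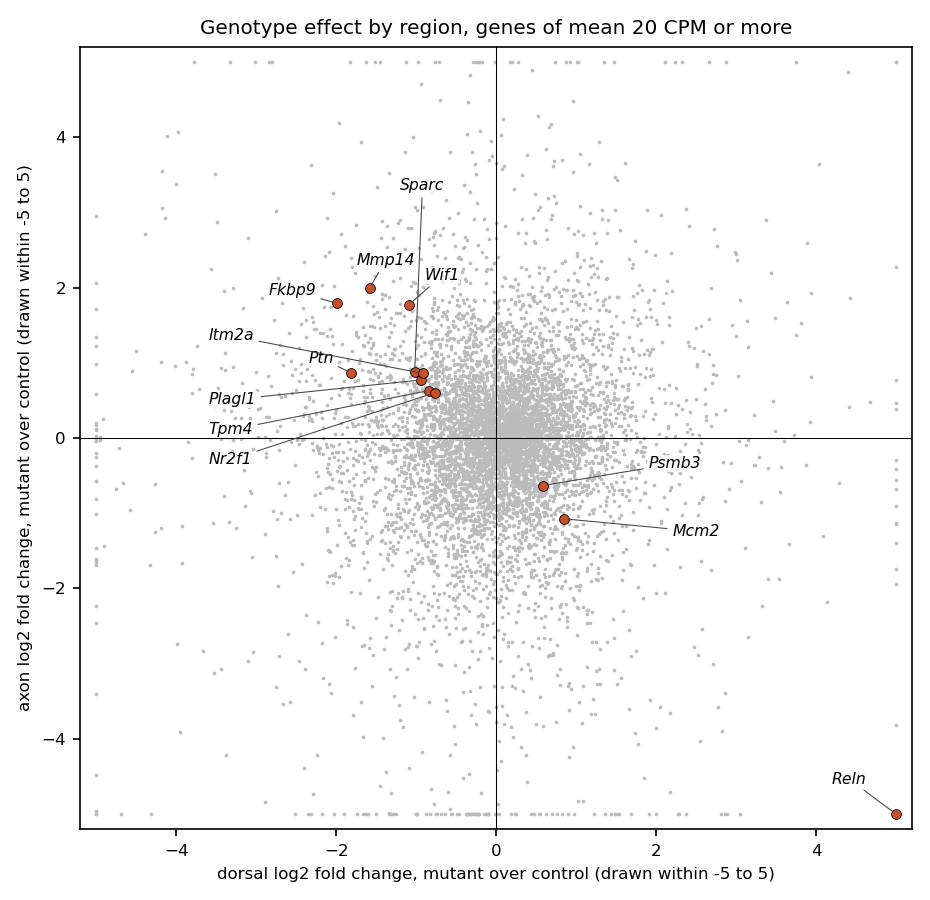
Mutant-minus-control log2 difference in the dorsal stalk (x axis) against that in the axon region (y axis) for 7179 genes with a mean of at least 20 CPM, drawn within 5 log2 units either way with 175 genes beyond that range held at the edge. Named points are 12 genes with an unadjusted p under 0.05 in both regions and opposite signs, 9 in the quadrant lower in dorsal and higher in axon mutants and 3 in the quadrant opposite.

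Mmp14 (ENSMUSG00000000957.11, chromosome 14, bases 54431612 to 54445364) encodes a membrane-anchored matrix metalloproteinase that cuts collagen and activates other proteases. Dorsal controls held 47.8, 74.9, 73.3 and 115 CPM and dorsal mutants 21.2, 24.2, 14.6, 27.1 and 21.5 CPM. Axon controls held 53.6, 95.7, 88.9 and 62.2 CPM and axon mutants 96.4, 425, 297, 202 and 232 CPM. Every dorsal mutant was below every dorsal control and every axon mutant above every axon control, although axon mutant 1 exceeded axon control 2 by little. The interaction was -3.58 ± 0.74 (log2, SE) and did not pass after adjustment (edgeR adjusted p = 0.0914). The dorsal-minus-axon difference was 0.02 ± 0.57 (SD, n = 4) in controls and -3.34 ± 0.88 (SD, n = 5) in mutants, on the log2(CPM + 1) scale.

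Only 4 genes of 16330 (0.0245%) had groups that did not overlap in either region with opposite directions, and 6 (0.0367%) did so with the same direction. Genotypes did not overlap for 472 genes (2.89%) in the dorsal stalk and 192 (1.18%) in the axon region. The 4 were Mmp14, Selenom, Taf4 and the predicted gene Gm9008. Selenom, a selenoprotein of the endoplasmic reticulum, held 74.9, 134, 260.4 and 90.4 CPM in dorsal controls, and 0, 44.4, 57.9, 17.4 and 33.2 CPM in dorsal mutants. In the axon region it held 47.9, 43.5, 68.8 and 68.2 CPM in controls and 93.4, 115, 172, 177 and 137 CPM in mutants, with an interaction of -3.41 ± 1.31 (log2, SE; edgeR adjusted p = 0.276). Taf4, a subunit of the general transcription factor TFIID, ran the other way, at 0 to 9.08 CPM in dorsal controls, 10.5 to 37.2 in dorsal mutants, 0.458 to 43.5 in axon controls and 0 to 0.286 in axon mutants (edgeR adjusted p = 0.233).

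Genes of signalling and transcription were also among the best-measured opposite genes. Wif1, which binds Wnt proteins outside the cell, held 385, 534, 350.2 and 543 CPM in dorsal controls and 119, 107, 133, 178 and 426 CPM in dorsal mutants. Its axon levels were 21.8, 220.0, 267 and 181 CPM in controls and 237, 442, 717, 674 and 202 CPM in mutants. Dorsal mutant 5 was the one dorsal mutant within the control range, and the interaction of Wif1 was -2.87 ± 0.66 (log2, SE; edgeR adjusted p = 0.196).

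Nr2f1, an orphan nuclear receptor of eye and optic nerve development, averaged 489.9 ± 111 (SD, n = 4) and 261 ± 85.0 (SD, n = 5) CPM in dorsal controls and mutants, and 287 ± 138 (SD, n = 4) and 385 ± 43.5 (SD, n = 5) CPM in axon controls and mutants. Its interaction was -1.37 ± 0.35 (log2, SE; edgeR adjusted p = 0.233), and the highest axon control, at 464 CPM, exceeded all axon mutants. Other genes of this kind were Itm2a, Fkbp9, a prolyl isomerase of the endoplasmic reticulum, the imprinted zinc finger gene Plagl1 and the tropomyosin gene Tpm4. Their interactions were -1.78, -3.78, -1.72 and -1.48 (log2), each with an edgeR adjusted p of 0.233. Itm2a averaged 897 ± 169 (SD, n = 4) and 463 ± 196 (SD, n = 5) CPM in dorsal controls and mutants, and 348 ± 78.7 (SD, n = 4) and 639 ± 305 (SD, n = 5) CPM in the axon region.

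In the other direction stood Reln, Psmb3 and Mcm2. Reln encodes a large secreted protein that guides the placement of neurons. It held 0.0416, 22.3, 0 and 60.0 CPM in dorsal controls and 436, 149.6, 446, 65.3 and 156 CPM in dorsal mutants, which did not overlap. Axon controls held 0, 13.1, 0 and 0.137 CPM and all axon mutants 0, so the axon side rested on axon control 2. Psmb3, a subunit of the proteasome core, averaged 451 ± 109 (SD, n = 4) and 747 ± 159 (SD, n = 5) CPM in dorsal controls and mutants, and 903 ± 361 (SD, n = 4) and 627 ± 166 (SD, n = 5) CPM in the axon region, with an interaction of 1.21 ± 0.33 (log2, SE; edgeR adjusted p = 0.233).

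**Figure D4:**
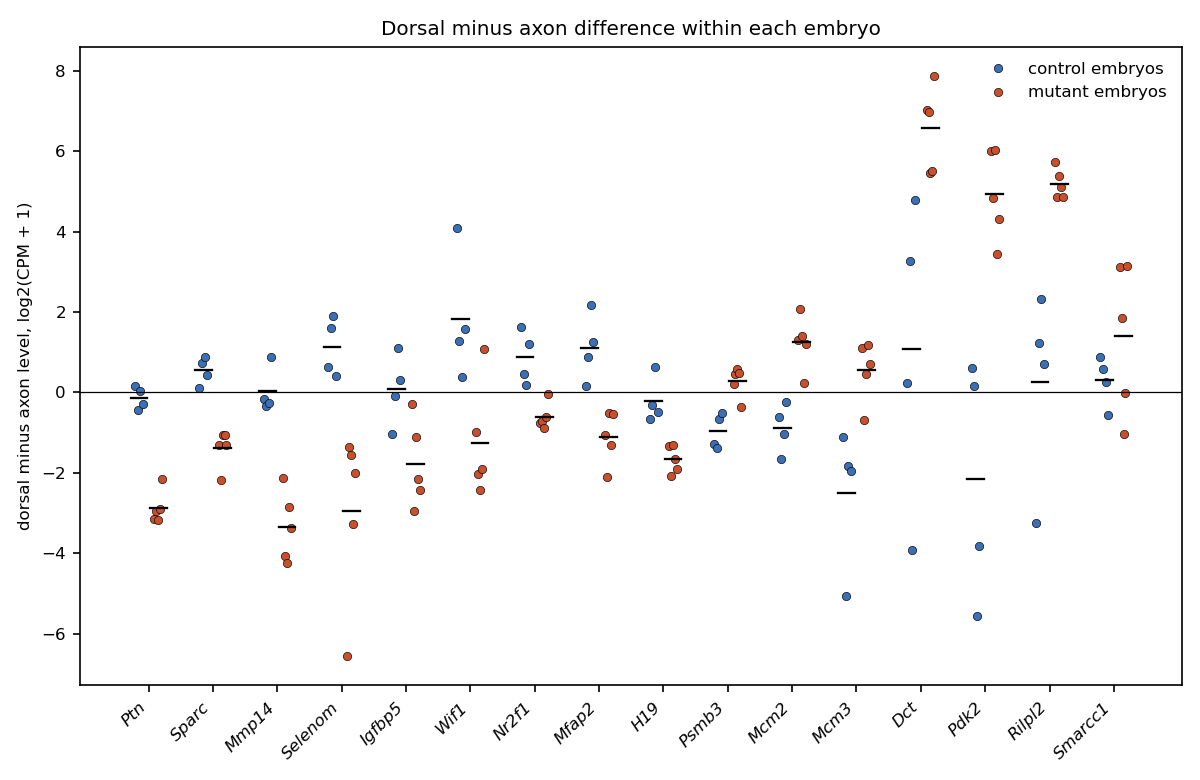
Dorsal-minus-axon difference in log2(CPM + 1) within each of the 4 control and 5 mutant embryos for 16 genes, with the mean of each genotype as a bar. For Ptn the controls lie between -0.44 and 0.17 and the mutants between -3.18 and -2.15.

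Mcm2 belongs to the cell cycle list, in which 5 of 20 genes tested had a positive interaction with an unadjusted p under 0.05, beside 7.65% of all genes in that direction, and none a negative one. They were Mcm2, Mcm3 and Mcm7, subunits of the replicative helicase, the sliding clamp gene Pcna and the cyclin gene Ccne2. None was called. Of the 20, 16 had a positive interaction, with a median of 0.87 beside 0.19 over all genes (log2). Mcm2 held 199.6, 44.1, 47.5 and 141 CPM in dorsal controls and 260.1, 283, 182, 148 and 183 CPM in dorsal mutants. Axon controls held 306, 142, 98.5 and 165 CPM and axon mutants 105, 66.7, 68.5, 125 and 79.5 CPM. The genotypes overlapped in both regions, and the interaction was 1.92 ± 0.57 (log2, SE; edgeR adjusted p = 0.233). Pcna, by contrast, was 219 ± 70.6 (SD, n = 4) and 438 ± 164 (SD, n = 5) CPM in dorsal controls and mutants and 409 ± 74.6 (SD, n = 4) and 407 ± 183 (SD, n = 5) CPM in the axon region.

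Among ligands and receptors, the list of pleiotrophin, midkine and their receptors had 2 of 10 genes tested with an unadjusted interaction p under 0.05, both negative, beside 4.02% of all genes in that direction. These were Ptn and the syndecan gene Sdc3, which was at 0 in axon controls. Ptn was known from earlier results of these data and was called by this contrast, so the count adds no support to that call. Midkine (Mdk), the close relative of pleiotrophin, averaged 1208 and 1190 CPM in dorsal controls and mutants and 885 and 891 CPM in axon controls and mutants, with an interaction of -0.02 (log2; edgeR adjusted p = 1). In the list of metalloproteinases and inhibitors, 2 of 13 had an unadjusted p under 0.05, beside 11.7% of all genes, Mmp14 negative and the inhibitor Reck positive. Reck was at 0 in all axon mutants, and its interaction of 7.48 turned to -2.63 with embryo as a block and to -3.46 with voom (log2). Of 18 Wnt antagonists and targets, 4 had an unadjusted p under 0.05, all negative, beside 4.02% of all genes in that direction: Wif1, Nkd2, Sfrp1 and Rnf43. Rnf43 averaged 26.7 CPM in dorsal controls, with its highest library at 105 CPM, and 0 and 0.0114 CPM in axon controls and mutants. Nkd2 averaged 10.9 CPM in dorsal controls (highest 39.6) and 5.79 CPM in axon mutants (highest 28.9), and 0.0149 CPM in axon controls. With embryo as a block 1 of the 18 had an unadjusted p under 0.05, beside 4.95% of all genes.

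Dkk1, a secreted Wnt antagonist, held 77.3, 93.7, 128, 106 and 78.5 CPM in dorsal mutants and 0 reads in the other 13 dorsal and axon libraries. The mean of the dorsal mutants was at least 560.1-fold higher than dorsal controls at the floor of 3 counts per library. The edgeR interaction could not be fitted for a gene at 0 in both axon groups and returned an adjusted p of 1, so these values describe the dorsal stalk alone.

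Of 20 genes of TGF-beta and BMP signalling, 5 had an unadjusted interaction p under 0.05, beside 11.7% of all genes. Ltbp1, the ligand gene Tgfb2 and Mfap2 were negative, and Tgfbr3 and Smad6, both at 0 in all axon mutants, were positive. Mfap2 was already known from earlier results of these data, so its place in this count adds no support. Tgfb2 averaged 509 ± 272 (SD, n = 4) and 95.3 ± 38.8 (SD, n = 5) CPM in dorsal controls and mutants and 237 ± 180 (SD, n = 4) and 152 ± 77.7 (SD, n = 5) CPM in the axon region. Of 13 genes of the IGF axis, H19 and Igfbp5 had an unadjusted p under 0.05, both negative, beside 4.02% of all genes in that direction. Igfbp5, a secreted IGF-binding protein, held 632, 983, 1749 and 968 CPM in dorsal controls and 887, 239, 716, 290.5 and 244 CPM in dorsal mutants, and 1291, 1042, 813 and 785 against 1091, 1852, 1542, 1298 and 1325 CPM in the axon region, with overlap in both. H19, an imprinted non-coding RNA next to Igf2, held 352 to 829.9 CPM in dorsal controls and 123 to 231 CPM in dorsal mutants, with 493 to 781 CPM in axon controls and 389 to 588 CPM in axon mutants. It thus differed without overlap in the dorsal stalk alone, with an interaction of -1.49 ± 0.47 (log2, SE; edgeR adjusted p = 0.233).

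Of 21 axon guidance genes, Ntn1, Sema3a and Unc5c had an unadjusted p under 0.05, all negative, beside 4.02% of all genes in that direction and 11.7% in either. With embryo as a block 1 of the 21 did, beside 4.95% of all genes. Ntn1, the netrin ligand that lets retinal axons leave the eye, averaged 296 ± 173 (SD, n = 4) and 58.9 ± 41.1 (SD, n = 5) CPM in dorsal controls and mutants, and 188 ± 121 (SD, n = 4) and 200.3 ± 117 (SD, n = 5) CPM in the axon region. Sema3a, a repellent semaphorin, averaged 70.8 ± 82.5 (SD, n = 4) CPM in dorsal controls and 0.166 ± 0.370 (SD, n = 5) CPM in dorsal mutants, and 0.432 CPM in axon controls. Of 13 axonal motor genes, the kinesins Kif5b and Kif5a had an unadjusted p under 0.05, both negative, beside the same 4.02% and 11.7%. None of the 24 SWI/SNF subunits tested, the 10 mitochondrial DNA genes or the 9 immediate early genes did.

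Markers of cell types were read in the same way, each beside 11.7% of all genes with an unadjusted p under 0.05. Of 13 markers of astrocyte progenitors and stalk, the glutamate transporter gene Slc1a3, the Notch target Hes1 and Vim were negative and Vax2 was positive. The summed level of 15 such markers was 3199 to 5135 CPM in dorsal controls and 1104 to 2085 CPM in dorsal mutants, without overlap, and 4347 to 8862 CPM in axon controls against 3589 to 5349.5 CPM in axon mutants, with overlap. Hes1 held 187 to 325 CPM in dorsal controls and 70.6 to 101 CPM in dorsal mutants, and 137 to 303 against 87.3 to 209 CPM in the axon region, with an interaction of -1.33 ± 0.41 (log2, SE; edgeR adjusted p = 0.233). Slc1a3 averaged 389 ± 147 (SD, n = 4) and 116 ± 35.1 (SD, n = 5) CPM in dorsal controls and mutants and 406 ± 261 (SD, n = 4) and 353 ± 154 (SD, n = 5) CPM in the axon region.

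Neurogenic genes had higher summed levels in dorsal mutants than in dorsal controls. Of 10 proneural and neurogenic factors, 8 had an unadjusted dorsal p under 0.05, all higher in mutants, beside 7.49% of all genes, and 1, the Notch ligand gene Dll3, had an unadjusted interaction p under 0.05. Atoh7, Neurod1, Insm1 and Gadd45g were at 0 in all 9 axon libraries, where an interaction could not be fitted. The summed level of the 10 was 8.28 to 37.6 CPM in dorsal controls and 210.0 to 960.1 CPM in dorsal mutants, and 1.53 to 58.3 against 0 to 104 CPM in the axon region. The dorsal sums of controls and mutants did not overlap, and the axon sums did. Most of the axon sum was Hes6, with means of 21.1 CPM in axon controls and 39.2 CPM in axon mutants. Of 7 retinal progenitor genes, Pax6 and Fgf15 were positive at an unadjusted p under 0.05. Pax6, a master regulator of eye development, held 106, 39.0, 47.4 and 53.0 CPM in dorsal controls and 227, 357, 291, 396 and 246 CPM in dorsal mutants. Its axon levels were 91.2, 56.1, 19.3 and 92.7 CPM in controls and 0, 0, 45.9, 11.5 and 80.5 CPM in mutants, and the edgeR adjusted p was 0.362.

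Pigment genes varied widely within groups. Dct, the gene whose promoter drives Cre, held 304, 30.6, 1.95 and 171 CPM in dorsal controls and 1175, 332, 924, 222 and 533 CPM in dorsal mutants. In the axon region it held 259.6, 2.29, 43.7 and 5.27 CPM in controls and 8.13, 1.66, 19.9, 3.91 and 1.29 CPM in mutants. The genotypes overlapped in both regions, and the interaction was 5.62 ± 1.43 (log2, SE; edgeR adjusted p = 0.233). Of 11 melanin synthesis genes, Dct was positive and Tyrp1 negative at an unadjusted p under 0.05, although Tyrp1 turned to 0.20 with embryo as a block on 18 libraries and to 2.06 with voom (log2). The summed level of the 11 was 43.6 to 5616 CPM in dorsal controls and 4281 to 14069 CPM in dorsal mutants. In the axon region the sum was 22.5 to 558 CPM in controls (median 99.4) and 3.91 to 1519 CPM in mutants (median 958), with overlap. There Pmel averaged 95.4 CPM in controls and 663 CPM in mutants, opposite to Dct, with 77.7 and 6.98 CPM. None of 8 other pigment epithelium genes tested had an unadjusted interaction p under 0.05, with a median dorsal difference of 2.32 (log2). Summed over the 11 such genes listed, the level was 130 to 943 CPM in dorsal controls and 953.5 to 2503 CPM in dorsal mutants, without overlap, and 78.6 to 247 against 170.4 to 391 CPM in the axon region, with overlap.

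**Figure D5:**
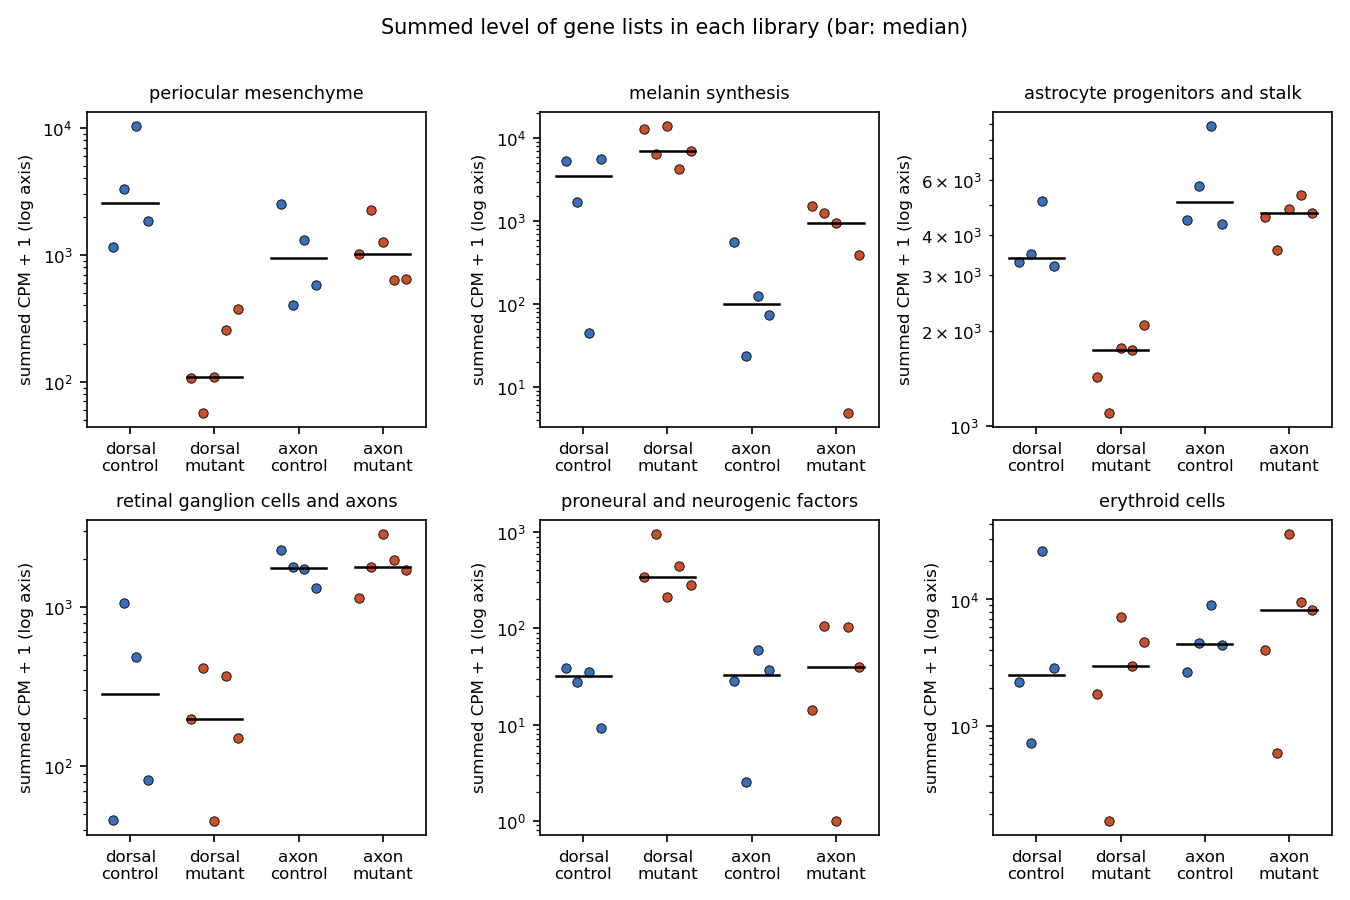
Summed level (CPM + 1, log axis) of 6 marker lists in each dorsal and axon library, with the median of each group as a bar. In the dorsal stalk the sums of mesenchyme, stalk and proneural markers do not overlap between genotypes; in the axon region they do.

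Markers of blood and vessel cells were read in both regions. Of 8 macrophage and microglia markers, Csf1r, Cx3cr1, Tyrobp and Fcer1g were positive at an unadjusted p under 0.05, and each was at 0 in all 5 axon mutants. With embryo as a block the count was 1, beside 4.95% of all genes. Summed over the 8, axon controls held 0 to 326 CPM and axon mutants 0 to 163 CPM, with overlap. Axon mutants 2 and 3 held 163 and 13.9 CPM, and C1qa, C1qb and Aif1 averaged 6.76, 25.9 and 2.77 CPM over the axon mutants. Of 8 endothelial markers, Tek and Pecam1 were negative. Summed over the 8, axon controls held 3.55 to 194 CPM. Axon mutants 1, 2, 3 and 5 held 263, 363, 342 and 250 CPM, and axon mutant 4 held 0.584 CPM. In the dorsal stalk the sum was 240 to 452 CPM in controls and 43.2 to 420 CPM in mutants, with overlap. Of 9 erythroid markers Alas2 was positive, of 6 mural markers Rgs5, and of 4 neural crest melanoblast markers Erbb3 was negative. Summed over 5 melanoblast markers, the level was 92.5 to 346 CPM in dorsal controls and 0 to 47.7 CPM in dorsal mutants, without overlap, and 82.0 to 346 against 49.4 to 254 CPM in the axon region, with overlap. In the dorsal stalk 3 of the 4 tested had an unadjusted p under 0.05, all lower in mutants, beside 7.49% of all genes. These were Ednrb, Erbb3 and Sox10. Erbb3 and Sox10 each rested largely on a single dorsal control library, at 48.1 and 20.6 CPM. Ednrb made up most of the dorsal sum, with 64.5 to 346 CPM in dorsal controls and 0 to 47.7 CPM in dorsal mutants. Erythroid sums ranged from 175.6 to 24360.0 CPM over the dorsal libraries and from 609 to 33121 CPM over the axon libraries, and overlapped between genotypes in both. Of 11 retinal ganglion cell markers, Elavl3 and Tubb3 were positive, with Elavl3 at 0 in all axon mutants. The part of these cells in the results was not tested.

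The remaining genes named by the study did not pass the interaction test. The edgeR adjusted p was 1 for Smarcc2, Smarca4, Otx2, Mitf, Sox9, Nefm and Adam15, 0.74 for Pax2 and 0.942 for Sox2. These values do not show that the regions responded alike, since the standard errors of the interaction ran from 0.60 for Smarca4 to 4.33 for Adam15 (log2). Nefm shares 19.2% of its exonic bases with Nefl, Adam15 shares 20.6% with another gene and Fgf15 25.7%, so reads of these genes are uncertain.

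Across all genes, 1907 (11.7%) had an unadjusted interaction p under 0.05, 1250 positive (7.65%) and 657 negative (4.02%). With embryo as a block there were 808 (4.95%), of which 568 were among the 1907. At least 1 group was at or under the floor for 1488 of the 1907 (78.0%), against 31.5% of all genes tested.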

How the data were processed

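Gene expression was read from 27 libraries of laser-captured optic stalk pieces, of which the 18 dorsal and axon libraries carry the comparison. The authors deposited raw read counts per gene, made, per the labels, with the submitters' processing notes naming STAR, HTSeq, Salmon and the mm10 build; versions and the strand setting are not given in the sources used here. Of 55487 gene identifiers, 55227 matched a GENCODE M21 annotation by identifier, and the other 260 held 0.00287% of the counts. No library was identical to another.

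Counts were tested with edgeR 4.0.16 in R 4.3.3 (TMM scaling, robust quasi-likelihood fit, 6 region and genotype groups plus batch, 27 libraries), on the 16330 genes that exceeded 10 counts in 3 or more libraries, and adjusted by Benjamini-Hochberg. A call needed an adjusted p under 0.05 and an absolute log2 difference over 0.58. The script was tested on simulated data. Libraries were matched to an embryo by the number in their names, which the labels do not say marks an embryo, so a fit with embryo as a block was an alternative, along with DESeq2 1.42.0 and limma 3.58.1 (voom). Correlations of deviations between same-embryo libraries ran from -0.02 to 0.07, and those between different embryos from -0.08 to 0.08, and 4 of 9 dorsal libraries correlated best with their own number. Single genes were tested by exact permutation of the dorsal-minus-axon difference in log2(CPM + 1) of each embryo, two-sided. These p values are unadjusted. Levels in the text are CPM on the full library total and are not corrected for gene length, so they are compared within a gene.

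Genes were named by rule: those called, the opposite genes with a mean of at least 20 CPM, 13 genes named by the study, up to 2 list members per direction with the smallest unadjusted p, and Ptn, Dkk1 and Mfap2 from earlier results; some genes that met the rule are not reported here. The genes without overlap in either region, the remaining list members and the genes called within a region were added after their values were seen. The members and gene lists were chosen with earlier results of these data known. Promoter sequence is RefSeq's. Figures were drawn with Python 3.11.15 and matplotlib 3.10.9.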

Additional observations from a re-analysis of the deposited data

Results flagged for a closer look

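The dorsal-minus-axon difference of log2(CPM + 1) within embryos is given for the 4 genes called in the interaction. They were chosen by the same contrast, so these values describe the calls and add no support to them. The mutant mean minus the control mean was -2.74 for Ptn, -1.93 for Sparc, 7.08 for Pdk2 and 4.93 for Rilpl2, and for each of the 4 all mutant embryos lay on one side of all control embryos.

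Single libraries stood apart from the others of their group in 10 of 100 groups examined over 25 genes, by a gap-to-range test that chance meets in about 1 of 20 groups. Ptn in axon control 1 was 1159 CPM, against 2159 to 2328 CPM in the other axon controls. Wif1 in dorsal mutant 5 was 426 CPM, against 107 to 178 CPM. Reln in axon control 2 was 13.1 CPM, against 0 to 0.137 CPM. Otx2 was 0.327 CPM in axon control 2, against 0, and 4.69 CPM in axon mutant 2, against 0 to 0.233 CPM. Pax2, a stalk regulator, was 0.826 CPM in dorsal control 3, against 33.1 to 39.2 CPM. Nefm, an axonal neurofilament, was 113 CPM in dorsal control 2, against 3.89 to 11.2 CPM. Axon mutant 4 stood apart for 3 genes, with Mitf at 166 CPM against 4.96 to 49.8, Sox2 at 266 CPM against 40.3 to 68.3, and Sox9 at 351 CPM against 32.8 to 125.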

How the results depend on the processing

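The 4 interaction calls numbered 2 with the 18 libraries only and 2 with embryo as a replicate block, on 27 or on 18 libraries, where Ptn and Sparc remained. They numbered 69 with no filter, 7 with the filter at 9 libraries, 97 with voom, 1485 with DESeq2 and 21 with edgeR's newer quasi-likelihood setting, and 2 to 10 when leaving out an embryo (2 without control 4, 10 without mutant 3). The 2 dorsal calls became 4, 10 (no batch term), 0 (batch B alone), 11 (RLE scaling), 51, 4, 113, 658 and 35 in the same order, and 2 to 6 (6 without control 1). The 5 axon calls became 0 with 18 libraries, 104 with no filter, 112 with voom, 1677 with DESeq2, 2 with the newer setting, 0 in a fit of the 9 axon libraries alone, and 1 to 14 (1 without control 4, 14 without mutant 3). Counts of 0 came from edgeR. The cause of these differences was not tested. The positive share of genes with an unadjusted interaction p under 0.05 was 65.5%, and 76.2% with the block, 75.9% with voom and 53.4% with the newer setting.

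The 83 opposite genes numbered 38 with 18 libraries, 183 with no batch term, 30 with batch per region, 22 in batch B alone, 35 with the stricter filter, 219 with DESeq2, 17 with a fit per region, and 34 to 85 without an embryo (34 without mutant 4). The 4 without overlap numbered 222 in batch B alone, with 3 control and 2 mutant embryos, and 6 to 12 without an embryo, 12 without control 1 or control 4. Genotype lies between embryos, so the effect within 1 region could not be fitted with the embryo block. The newer setting, the fits per region and a voom span of 0.1 (the fitted trend fell below 0 at the default) were chosen after seeing the data.

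For named genes, 1089 of the interaction values kept their direction and side of the threshold, 23 were weaker, 53 stronger and 26 reversed. None of the reversed genes was called. The interaction of Otx2 (log2) reversed to 0.18 (18 libraries), 4.26 and 2.36 (block, 27 and 18 libraries), 1.08 (batch per region), 2.80 (batch B) and 6.28 (voom), and ran from -4.42 to 3.53 without an embryo. Reck reversed to -2.63 and -2.75 (block), -0.23 (batch B) and -3.46 (voom), and ran from -2.39 to 8.75. Nefm reversed to 0.31 (block) and ran from -1.003 to 1.89. Tyrp1 reversed to 0.20 (block, 18 libraries) and 2.06 (voom) and ran from -9.33 to 2.61. Smarca4 reversed to -0.16 (batch B) and ran from -0.040 to 0.67, Mitf reversed to -0.018 (batch B), and Sox9 reversed to 0.095 (voom) and ran from -0.59 to 0.43. Without an embryo, embryo differences ran from -0.48 to 0.47 for Sox9, -1.42 to 0.51 for Nefm, -0.98 to 2.42 for Tgfbr3 and -1.64 to 0.72 for Kif5a.

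Most genes with a low interaction p had a group near 0 reads, and the number of embryos limits the precision of every value here.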
